A study of Homo sapiens with 6 samples.

Results

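Pancreatic and endodermal identity was followed through 8 transcription factor genes: *GATA6*, *GATA4*, *FOXA1*, *FOXA2*, *FOXA3*, *PDX1*, *HNF4A* and *KLF5*. They were taken as the entries of the normalized count table whose gene symbol equals one of these names, and all 8 were found among 20347 gene symbols. RNA-seq was performed in PaTu8988t, an established human cell line of pancreatic ductal adenocarcinoma (PDAC), to ask what changes when SAMD1, a chromatin protein of CpG islands, is removed. The 3 *SAMD1* KO libraries came from 3 clonally independent lines made by CRISPR/Cas9 with the Lenti-CRISPR V2 plasmid and guides against *SAMD1*, and the 3 Control libraries from PaTu8988t cells given an unspecific control guide. All cells grew in high-glucose DMEM with fetal bovine serum, and a KO replicate number therefore stands for a clone, while nothing says that the control replicates are separate clones, so that p-values measure the spread between these libraries. Pooled cells were sequenced, and more cells with a transcript cannot be told apart from more transcript per cell.

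These factors build the foregut lineages in an overlapping hierarchy. GATA4 and GATA6 are zinc finger factors, and the FOXA proteins are pioneer factors that open chromatin in endoderm. PDX1 marks the pancreatic progenitor field and later beta cells, HNF4A is a nuclear receptor of hepatic and intestinal epithelium, and KLF5 is a zinc finger factor of epithelial cells. In PDAC, *GATA6*, *HNF4A*, *FOXA2* and *PDX1* are known as genes of the classical subtype, while their loss accompanies the basal-like or squamous subtype.

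The libraries held 35589477 to 45172216 recovered reads. *SAMD1* RNA stood at 2231, 2382 and 2299 normalized counts (reads divided by the size factor of the library) in the controls and at 874.1, 1082 and 824.8 in the KO clones, a log2 fold change of -1.32 with an SE of 0.105 (limma, adjusted p = 0.000724). Reads over a gene differed far more between clones (chi-square of 50.91 to 58.49 per degree of freedom) than between control replicates (2.64 to 5.19). Among duct markers, *KRT8*, *KRT18*, *EPCAM*, *CA2* and *MUC1* were expressed. *KRT19* and *SPP1* had no reads in any library, and *CFTR* and *AQP1* lay below the minimum level. Of 7 tested duct markers, 3 were called higher, beside 5.77% of all tested genes. These were *SLC4A4*, *KRT7* and *KRT18*, the last with an adjusted p of 0.0598 (limma). Of the acinar and endocrine markers, 1 of 9 and 1 of 8 reached the minimum level, and hepatocyte markers summed to 0 to 7.776 normalized counts per library. Of the fibroblast markers, *DCN* and *LUM* had no reads. The summed list lay at 167.2 to 170.2 in the controls and at 163.7 to 457.9 in the clones. *PDGFRA* passed the cut-off from a low level, at 17.9 in the clones against 3.975 on average. *COL3A1* lay higher in every clone, at 269.5 against 111.1 on average, and did not pass the cut-off (log2 fold change 1.13, limma, adjusted p = 0.0881). *COL1A1* of the same list lay lower in every clone, at 26.17 against 50.65 on average, without passing it (log2 fold change -1.04, limma, adjusted p = 0.098). Leukocyte markers, mostly *CD68*, summed to 358.5 to 382.6 against 252.3 to 333.7, and endothelial markers to 80.07 to 89.35 against 36.59 to 85.45. The part of these lists in the results below was not tested.

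Of the 8 factors, 6 passed the minimum mean of 10 normalized counts and were tested. *GATA6*, *FOXA1* and *PDX1* rose in the *SAMD1* KO clones, by 2.00, 1.08 and 0.65 on the log2 scale. *GATA4*, *FOXA3* and *KLF5* did not pass the cut-off of a log2 fold change beyond 0.5 with an unadjusted p below 0.01, none of the 8 passed it in the lower direction, and *FOXA2* and *HNF4A* had too few reads for the test. Over all 12773 tested genes, 7.85% were called in either direction, 5.77% higher and 2.08% lower. With the adjusted p below 0.05 in the cut-off instead, the same 3 of 6 factors passed, beside 7.21% of all tested genes (5.34% higher and 1.87% lower). In 3 of the 6 tested factors the KO libraries all lay above the controls, which held for 19.2% of all tested genes (37.8% without overlap in either direction). The median log2 fold change of the 6 was 0.42, beside -0.01 over all tested genes, whose 5th to 95th percentile ran from -0.45 to 0.78.

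**Figure D1:**
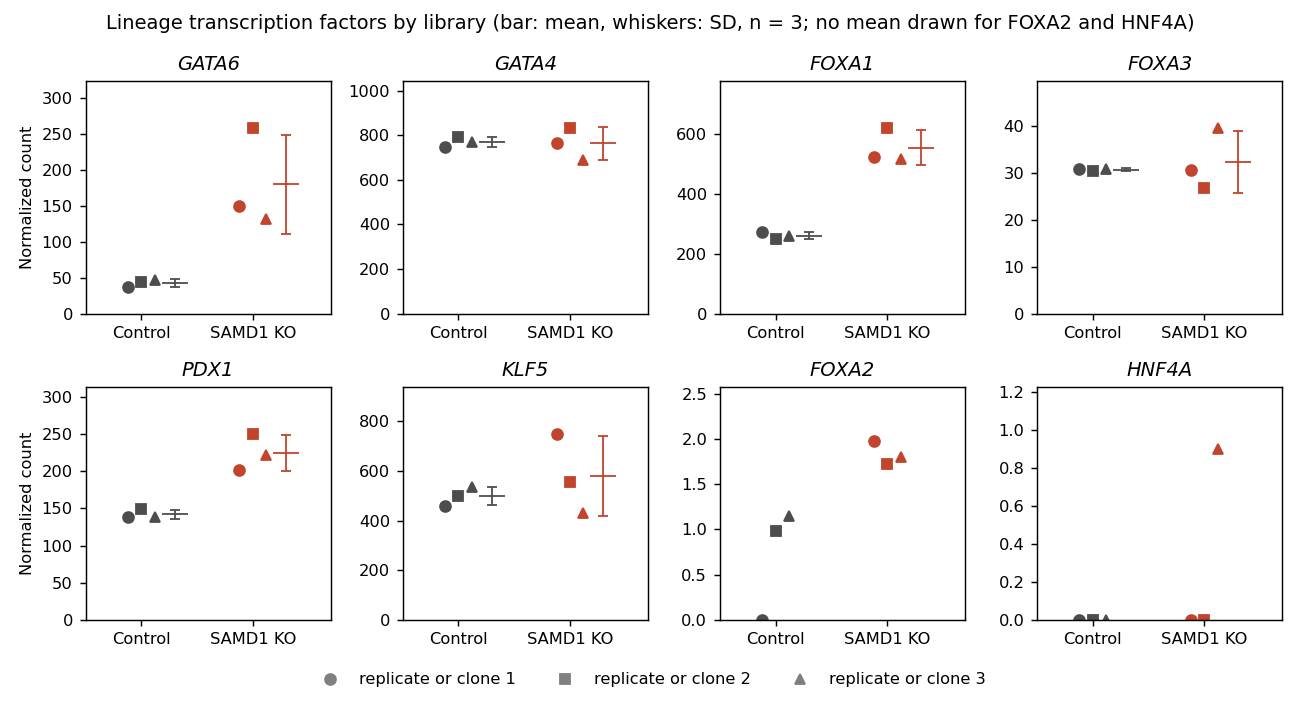
Normalized counts of the 8 transcription factors in each library (vertical axes start at 0 and differ between panels). Points are single libraries, with the same marker for replicate or clone 1, 2 and 3, and bars with whiskers give mean and SD of the 3 libraries. *GATA6*, *FOXA1* and *PDX1* separate KO from control, *GATA4*, *FOXA3* and *KLF5* overlap, and *FOXA2* and *HNF4A*, drawn without a mean, stay at or below 2 reads per library.

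*GATA6*, a regulator of pancreas formation, lies on chromosome 18 (GRCh38, 22169589 to 22202528, plus strand). In the controls it was counted at 36.6, 44.03 and 46.96 normalized counts, which came from 32, 45 and 41 reads. In KO clones 1, 2 and 3 it stood at 149.3, 259.2 and 132.2, from 151, 300 and 147 reads. Every clone lay above every control, and clone 2 stood apart from the other two. The means were 42.53 ± 5.34 and 180.2 ± 68.9 (SD, n = 3 each), a ratio of 4.24. The log2 fold change was 2.00 with an SE of 0.269 and a 95% interval of 1.37 to 2.63 (limma, adjusted p = 0.00467), the 59th largest rise of all tested genes. An exact two-sided permutation test of the 6 values gave p = 0.1, the smallest that 3 against 3 libraries allow. *GATA6-AS1*, *RNU6-702P* and 2 unnamed genes (ENSG00000264012 and ENSG00000266283) overlap *GATA6* on the opposite strand. Their reads were not analysed here, and without the strand setting of the counting, which is not given in the sources used here, reads of *GATA6* and of these genes cannot be told apart.

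SAMD1 is known to bind unmethylated CpG-rich DNA with a preference for GCGC, and the sequences before the start sites are shown for *GATA6* and *FOXA1*, which rose, for *FOXA3*, which did not pass the cut-off, and for *HNF4A*, which was almost silent. They come from the RefSeq promoter table (GRCh38.p14), from which 7 start sites of 5 of the 8 genes were used. Windows of *GATA4*, *FOXA2* and *PDX1* were left out of this count. Whether *GATA6* differs in GCGC from its paralog *GATA4* was therefore not tested. The sequences read 5′ to 3′ on the gene's strand. Those of *GATA6*, *FOXA3* and *HNF4A* end at the base before the start, and that of *FOXA1* ends 99 bases short of it. Stretches annotated as an exon of the same gene (99 bases of *FOXA1* and 116 of *FOXA3*) are not printed. Capitals mark GCGC, which reads the same on both strands, with overlapping matches counted.
GATA6, chr18:22169339-22169588, plus strand: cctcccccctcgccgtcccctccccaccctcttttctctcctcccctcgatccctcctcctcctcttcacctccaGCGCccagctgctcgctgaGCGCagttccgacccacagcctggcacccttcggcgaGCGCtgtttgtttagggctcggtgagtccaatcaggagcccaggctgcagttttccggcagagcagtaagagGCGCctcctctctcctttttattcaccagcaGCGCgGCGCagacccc
FOXA1, chr14:37595349-37595499, minus strand: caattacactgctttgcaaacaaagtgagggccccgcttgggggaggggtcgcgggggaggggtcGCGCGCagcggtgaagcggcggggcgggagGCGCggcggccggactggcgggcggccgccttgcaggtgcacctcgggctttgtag
FOXA3, chr19:45864192-45864325, plus strand: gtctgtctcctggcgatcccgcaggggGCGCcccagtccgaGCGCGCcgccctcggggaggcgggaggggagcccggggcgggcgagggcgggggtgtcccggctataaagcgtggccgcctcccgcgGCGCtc
HNF4A, downstream start site, chr20:44400989-44401238, plus strand: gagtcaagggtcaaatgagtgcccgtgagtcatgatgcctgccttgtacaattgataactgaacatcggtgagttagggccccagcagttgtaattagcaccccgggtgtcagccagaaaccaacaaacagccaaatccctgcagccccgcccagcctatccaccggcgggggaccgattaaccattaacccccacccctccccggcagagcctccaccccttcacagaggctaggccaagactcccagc
In the full 250 bases, GCGC occurred 6 times before *GATA6*, 3 times before *FOXA1* and 5 times before *FOXA3*. It was not found before either start site of *HNF4A*, and at *KLF5* it occurred 0 times before the upstream and 4 times before the downstream start. Over the 35116 windows of the table, 53.4% held GCGC at least once, with a median of 1, and 11.2% held as many as *GATA6*, 16% as many as *FOXA3* and 29.5% as many as *FOXA1*. CpG dinucleotides numbered 16 before *GATA6*, 26 before *FOXA1*, 28 before *FOXA3* and 8 before each start of *HNF4A*, beside a median of 11. *FOXA3*, which did not pass the cut-off, held more GCGC than *FOXA1*, which rose. The windows of both lay inside the gene as annotated, downstream of its annotated start, while that of *GATA6* ended directly before it. These matches describe letters and not binding, which was not analysed here.

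*GATA4*, the close paralog of *GATA6*, lies on chromosome 8 (11676959 to 11760002). It stood at 745.8, 792.5 and 768.6 normalized counts in the controls and at 765.4, 834.6 and 689.9 in the clones. The clone values lay on both sides of the controls, with clone 3 lowest and clone 2 highest. The log2 fold change was -0.01 with an SE of 0.089 and a 95% interval of -0.22 to 0.19 (limma, adjusted p = 0.932), so that a change beyond the cut-off of 0.5 lay outside the interval, while the sign was not settled and turned in some of the settings listed in the closing section.

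Because longer transcripts give more reads, *GATA4* and *GATA6* were set against each other as RPKM over the merged exon length. Per length, the level of *GATA4* was 4.25 ± 0.14 RPKM in the controls and 4.31 ± 0.48 in the clones, and that of *GATA6* 0.275 ± 0.035 and 1.19 ± 0.48. *GATA6* made up 5.43, 6.10 and 6.67% of the summed *GATA4* and *GATA6* RPKM in the controls and 18.6, 26.6 and 18.3% in the clones. *GATA4* thus remained the more abundant of the pair in all 6 libraries. *GATA5* and *GATA2*, a gut and a hematopoietic paralog, were also expressed. With both added, the *GATA6* share was 2.34 ± 0.29% in the controls and 8.22 ± 2.5% in the clones (SD, n = 3 each). An exact permutation test of either share gave p = 0.1.

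**Figure D2:**
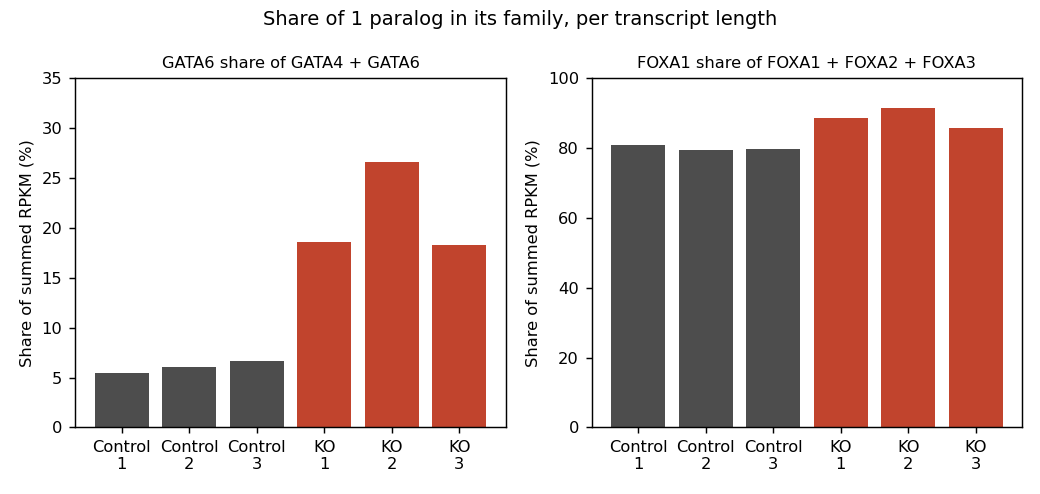
Share of 1 paralog in the summed RPKM of its family in each library (percent, bars start at 0, note the different upper limits of both axes). The *GATA6* share of *GATA4* plus *GATA6* lies at 5.43 to 6.67% in the controls and 18.3 to 26.6% in the clones, and the *FOXA1* share of the FOXA genes at 79.4 to 80.9% and 85.9 to 91.4%.

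*FOXA1*, a pioneer factor of foregut epithelium, lies on chromosome 14 (37589552 to 37596059, minus strand). It was counted at 272.2, 248.5 and 260.0 in the controls and at 523.1, 620.3 and 517.2 in the clones. All clones lay far above the controls, and clones 1 and 3 were nearly equal. The means were 260.3 ± 11.9 and 553.5 ± 57.9, a ratio of 2.13. The log2 fold change was 1.08 with an SE of 0.106 and a 95% interval of 0.83 to 1.33 (limma, adjusted p = 0.00147). The gene *TTC6* overlaps *FOXA1* on the opposite strand and rose as well, from 18.3, 12.72 and 19.47 to 46.47, 46.65 and 33.28 normalized counts (log2 fold change 1.28, limma, adjusted p = 0.0238). The libraries were stranded, but the same doubt on the strand setting applies. Reads of the pair may therefore be shared, although *TTC6* held far fewer than *FOXA1*.

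*FOXA3*, a paralog of liver and gut on chromosome 19 (45863989 to 45873797), stood at 30.88, 30.33 and 30.93 in the controls and at 30.65, 26.78 and 39.58 in the clones. Clone 3 lay above and clone 2 below the controls. The log2 fold change was 0.05 with an SE of 0.225 and a 95% interval of -0.47 to 0.58 (limma, adjusted p = 0.899), and it too changed sign in some settings. *FOXA2*, on chromosome 20 (22580998 to 22585455), was near the detection limit, with 0, 1 and 1 reads in the controls and 2 reads in each clone. These were 2 reads against 6, a depth-scaled ratio of 2.59 whose 95% counting interval, 0.463 to 26.2, contains 1. Counting intervals and floors cover counting error only.

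*FOXA1* therefore carried most of the FOXA transcript in every library. Its share of the summed FOXA RPKM was 80.9, 79.4 and 79.7% in the controls and 88.7, 91.4 and 85.9% in the clones. The summed level of the family was 1.81 ± 0.061 RPKM and 3.54 ± 0.35 RPKM (exact permutation p = 0.1 for either quantity).

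*PDX1*, the homeobox factor of the pancreatic bud, lies on chromosome 13 (27920000 to 27926313). It stood at 138.4, 148.7 and 138.6 in the controls and at 201.7, 250.5 and 221.3 in the clones. The groups did not overlap, and the gap between the highest control and the lowest clone exceeded the whole range of either group. The means were 141.9 ± 5.9 and 224.5 ± 24.6, a ratio of 1.58. The log2 fold change was 0.65 with an SE of 0.126 and a 95% interval of 0.36 to 0.95 (limma, adjusted p = 0.0175). It stayed past the cut-off when any single library was left out, but its adjusted p then ran from 0.0111 to 0.0952 and was below 0.05 in 3 of 6 cases.

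*KLF5*, further along the same chromosome (73054976 to 73077541), stood at 459.8, 499.0 and 533.8 in the controls and at 749.5, 556.4 and 431.7 in the clones. The clones fell apart here, with clone 1 above and clone 3 below all controls. The log2 fold change was 0.18 with an SE of 0.190 and a 95% interval of -0.26 to 0.63 (limma, adjusted p = 0.559). Without clone 1 it was -0.02, so that the positive sign rested on that clone.

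*HNF4A*, on chromosome 20 (44355699 to 44432845), had 1 read among 243774212 over all 6 libraries, in clone 3. A count of 0 allows up to 3 reads, which corresponds to 2.59 to 3.44 normalized counts depending on the library. Neither group exceeded this floor, and *HNF4A* did not enter the main test. With no filter the fit returned a log2 fold change of 0.31 (limma, adjusted p = 0.677), which rests on that 1 read. *MIR3646* overlaps *HNF4A* on the same strand and *HNF4A-AS1* and ENSG00000233376 on the opposite strand. Its paralog *HNF4G* was expressed, at 503.3, 514.6 and 514.3 in the controls and 512.2, 558.1 and 754.6 in the clones, with a log2 fold change of 0.23 that did not pass the cut-off (limma, adjusted p = 0.326).

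The order of the levels per length in the controls was *GATA4*, *KLF5* (3.32 ± 0.25 RPKM), *FOXA1* (1.45 ± 0.063), *PDX1* (1.34 ± 0.058), *FOXA3* (0.354 ± 0.0032), *GATA6*, *FOXA2* and *HNF4A*. *FOXA1* and *PDX1* overlapped, at 1.38 to 1.51 and 1.30 to 1.40 RPKM. In the clones *GATA4*, *KLF5* (3.94 ± 1.0) and *FOXA1* (3.15 ± 0.39) came first and each overlapped the next, followed by *PDX1* (2.16 ± 0.28), *GATA6* and *FOXA3* (0.380 ± 0.074), which did not overlap their neighbours. By mean RPKM, *GATA6* and *FOXA3* thus exchanged places between the groups. In the controls they had only 32 to 45 and 27 to 31 reads per library, and the counting error of this order was not tested.

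**Figure D3:**
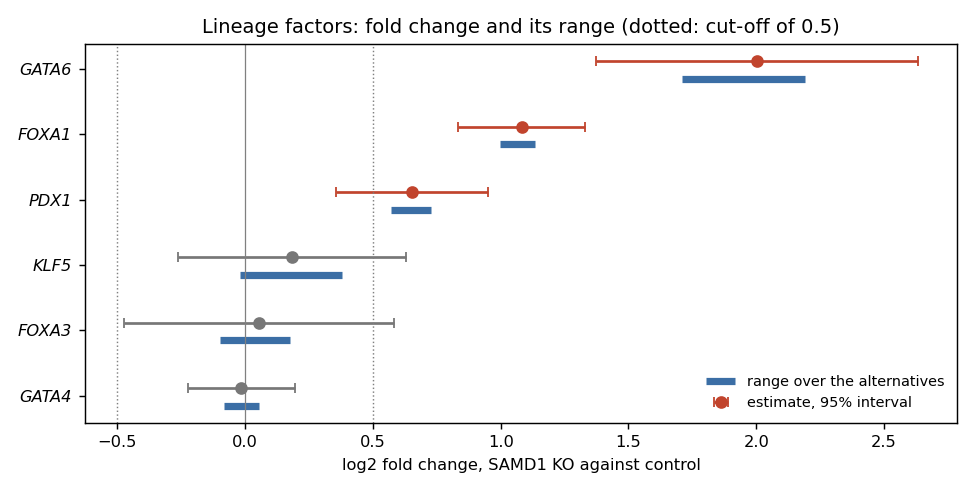
Log2 fold change (KO clones against controls) for the 6 tested factors, as points with 95% intervals (red past the cut-off, grey not), and, in blue, the lowest to highest value over all alternative settings that gave one. The intervals of *GATA6* and *FOXA1* lie wholly above 0.5, that of *PDX1* begins at 0.36, and those of *KLF5*, *FOXA3* and *GATA4* contain 0.

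Against the mean of the controls, *GATA6* was 3.51, 6.09 and 3.11 times as high in clones 1, 2 and 3, *FOXA1* 2.01, 2.38 and 1.99 times and *PDX1* 1.42, 1.77 and 1.56 times. Clone 2 was the highest in 3 of the 3 called factors and in 4 of the 6 tested ones. The coefficient of variation of *GATA6* was 12.6% among the controls and 38.2% among the clones, against 3.04% and 9.48% for *GATA4*. To see whether the neighbourhood of each gene moved with it, the median log2 difference of the 40 nearest tested genes was taken in each clone. Around *GATA6* it was 0.14, 0.05 and 0.11, and after its removal the log2 fold change of *GATA6* was 1.90 (limma, adjusted p = 0.0034). With the same correction *FOXA1* stood at 1.13 and *PDX1* at 0.69. For *FOXA3* in clone 3 the neighbouring genes were at 0.33, close to 0.36 for *FOXA3* itself.

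**Figure D4:**
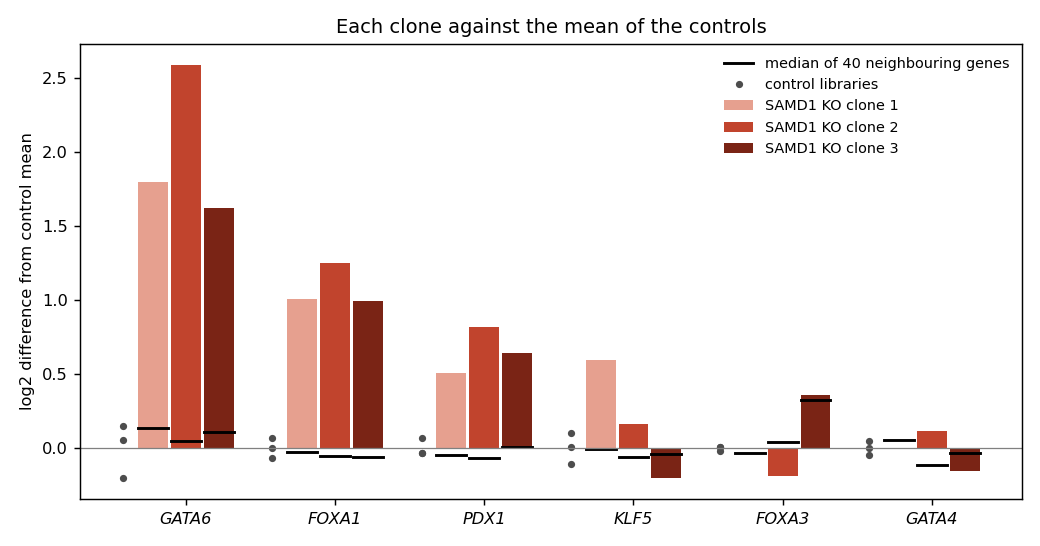
Log2 difference from the control mean in each clone for the 6 tested factors (bars, starting at 0), with single control libraries as dots and the median of the 40 neighbouring tested genes as black lines. In *GATA6*, *FOXA1* and *PDX1* all clones exceed the controls and their neighbourhood and clone 2 is highest, while the *KLF5* bars run from above to below 0 and the clone 3 bar of *FOXA3* ends near its neighbourhood line.

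The libraries form 2 groups, so that many genes follow a factor that differs between them. With *GATA6*, 377 of 11452 genes with a mean of at least 50 correlated above 0.95 over the 6 libraries, and the closest were *IL17RD* (Pearson r = 0.9974), *SLC66A3* and *TMEM8B*. For *FOXA1* there were 477, led by *LTBP1* (r = 0.9977), *CEP95* and *HEMK1*, and for *PDX1* 425, led by *HOXB6* (r = 0.9984), *SLCO4A1* and *JAG2*. For the factors not called these numbers were 34 (*GATA4*, led by *DGKQ*, *SCNN1D* and *URGCP*), 52 (*FOXA3*, led by *SAE1*, *THBS4* and *NIBAN1*) and 38 (*KLF5*, led by *PLEK2*, *PITPNA* and *TOM1L2*).

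In 5 lists of other factors from the same lineages, 30 of 56 genes were tested, of which 7 rose and 0 fell (23.3% called, beside 7.85% of all tested genes). Their median log2 fold change was 0.40, and in 13 of the 30 the clones lay wholly above the controls, beside 19.2% of all tested genes. Among GATA paralogs and cofactors, 1 of 5 rose, the GATA-type repressor *TRPS1* (log2 fold change 0.59, limma, adjusted p = 0.0397), while the cofactor *ZFPM1* stood at 0.62 (adjusted p = 0.103) and *GATA5* at 0.47 (adjusted p = 0.115). The cofactor *ZFPM2* went the other way, at -1.01, without passing the cut-off (limma, adjusted p = 0.206), and its clone 3 lay inside the control range. Of 7 liver-enriched factors, the coactivator *PPARGC1A* rose by 1.29 from a low level (adjusted p = 0.0519), and *ONECUT1*, a factor of liver and pancreatic progenitors, stood at 0.65 (adjusted p = 0.110). Of 7 epithelial factors of the KLF, ETS, GRHL and OVOL families, *GRHL1* rose by 1.55 (adjusted p = 0.0041), from 164.7, 135.0 and 116.8 to 312.5, 485.5 and 435.3 normalized counts. *KLF4* stood at 0.47 with an adjusted p of 0.0351 and missed the fold cut-off.

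Of 6 tested pancreatic acinar, endocrine and progenitor factors, 2 rose. *SOX9*, the factor of duct cells and progenitors, was at 766.4, 712.3 and 707.9 in the controls and at 2491, 1646 and 1045 in the clones (log2 fold change 1.16, limma, adjusted p = 0.0357), and here clone 1 was highest. The endocrine factor *INSM1* went from 8.007, 0 and 1.145 to 27.69, 27.65 and 27.88 (3.42, adjusted p = 0.0277). Its value rested on single controls, at 4.29 without control replicate 1 and 2.71 without control replicate 2, and with 1 library left out its adjusted p was below 0.05 in 2 of 6 cases. *PAX6*, also endocrine, stood at 0.97 (adjusted p = 0.0768), and the acinar regulator *PTF1A* and the endocrine progenitor factor *NEUROG3* had no reads. Of 5 early endoderm and gut tube factors, *EOMES*, a factor of gastrulation, rose by 1.63 (adjusted p = 0.0065) and *SOX2*, a factor of the anterior foregut and of stem cells, by 1.52 (adjusted p = 0.00261), while the intestinal factor *CDX2* stood at 0.07 (adjusted p = 0.677). The calls of *TRPS1*, *SOX9* and *PPARGC1A* were each lost on removal of control replicate 1, 2 or 3, and also without clone 2 (*TRPS1*, *SOX9*, *PPARGC1A*) or clone 3 (*TRPS1*, *PPARGC1A*). That of *PPARGC1A* was also lost with DESeq2 (adjusted p = 0.0813). Their log2 fold changes then remained positive, at 0.45 to 0.74, 0.85 to 1.47 and 1.13 to 1.56 over all libraries left out in turn.

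The output genes of these lineages were low or silent in both groups. Of 28 liver and gut genes present, 4 were tested and 0 passed the cut-off (limma, also 0 at an adjusted p below 0.05), with 8 at no reads and 18 at 3 reads or fewer. The smallest p belonged to *APOM*, an apolipoprotein (log2 fold change 0.92, adjusted p = 0.165), which was the only 1 of the 4 with a p below 0.05, and *CDHR2*, a brush border cadherin, came next at -0.25 (adjusted p = 0.758). Of 24 classical PDAC genes, 0 reached the minimum level and 9 had no reads, among them *TFF1*, *TFF2*, *AGR2* and *CEACAM6*, and the list summed to 30.93 to 43.05 normalized counts in the controls and 31.1 to 39.55 in the clones. The sums of the groups overlapped, and single genes of the list were not tested. Of 23 basal-like PDAC genes present, 9 were tested. Of these 1 rose, the keratin *KRT7* by 1.46 (limma, adjusted p = 0.00392), which is the same gene as the duct marker above. Another 2 fell, beside 5.77% higher and 2.08% lower of all tested genes. These were *CST6*, a cysteine protease inhibitor, at a log2 fold change of -2.33 (adjusted p = 0.00596), and *FAM83A*, a signalling adaptor, at -0.75 (adjusted p = 0.0226), with a list median of -0.12.

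**Figure D5:**
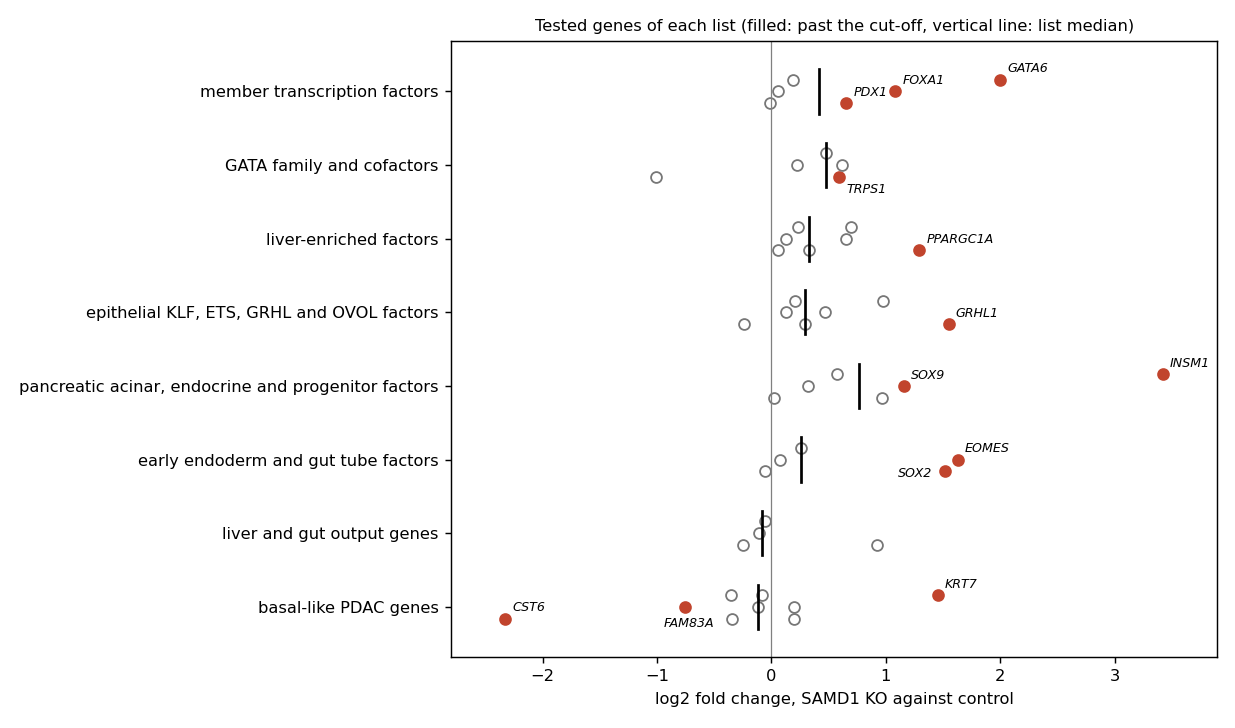
Log2 fold change (KO clones against controls) for the tested genes of the 8 factors, of 5 lists of other lineage factors, of liver and gut output genes and of basal-like PDAC genes. Each circle is a gene, filled and named where it passed the cut-off, and the vertical line is the list median. Called genes of the factor lists lie to the right of 0, 0 of the 4 output genes passed, and *CST6* and *FAM83A* of the basal-like list lie to the left.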

How the data were processed

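Alignment to the human transcriptome was done by the authors with RNA-Star, and the submitters' processing notes name featureCounts, DESeq2 and hg38. The deposited signal is in normalized counts, which are reads of a gene over the size factor of its library (0.873 to 1.16). Each value was a whole multiple of 1 step per library within a tolerance of 0.01 (100% of values), so that reads were recovered. At 35589477 to 45172216 reads per library, the number of libraries limits the precision of all but the lowest genes. No column was left unused (0). A deposited table of the authors' own comparison, with fold changes and p-values, was not used.

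The main test was limma 3.58.1 (R 4.3.3; lmFit, then eBayes with trend), applied to log2(normalized count + 1), which understates the fold changes of low genes. It covered 12773 genes, those averaging 10 or more normalized counts across the 6 libraries. A call required, as in the study, more than 0.5 in absolute log2 fold change together with p below 0.01 before adjustment. All tested genes entered the Benjamini-Hochberg adjustment. RPKM was computed from recovered reads and the merged exon length of GENCODE 44 (GRCh38), also used for positions. Alternatives were other pseudocounts and minimum levels, 75th percentile rescaling, a block for the replicate number, single libraries left out, removal of the regional shift, an adjusted p in the cut-off, and edgeR 4.0.16 and DESeq2 1.42.0 on recovered reads. The fits were tested on simulated data with the same spread in both groups. That test therefore does not cover the larger spread between clones found here.

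The 8 factors and the gene lists were chosen with earlier results of these data known, and some genes of these lineages are not reported here. Named are the 8 factors, *SAMD1*, in each list the called genes (up to 4 by p, or the 2 with the smallest p where fewer than 2 were called), the checked cell type markers, overlapping genes and the 3 genes closest to each tested factor by Pearson r. *GATA2*, *GATA5*, *ZFPM2*, *HNF4G*, *PAX6*, *PTF1A*, *NEUROG3*, *CDX2* and the classical PDAC genes named at 0 reads are exceptions, chosen once their values had been seen.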

Additional observations from a re-analysis of the deposited data

How the results depend on the processing

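In all 16 alternative settings, 3 of the factors were called higher and 0 lower, and *GATA6*, *FOXA1* and *PDX1* were each past the cut-off in 16 of 16. Leaving out each library in turn gave log2 fold changes of 1.71 to 2.19 for *GATA6*, 1.00 to 1.13 for *FOXA1* and 0.57 to 0.73 for *PDX1*. The factors not called changed sign in some settings, and the cause was not tested. *GATA4* (-0.0146) was at 0.0045 with 75th percentile rescaling, at 0.0188 with the regional shift removed, and between -0.0811 and 0.056 with single libraries left out. *FOXA3* (0.054) was at -0.0531 with the regional shift removed and between -0.0968 and 0.1764 with single libraries left out, and no value could be had at a mean of at least 50. *KLF5* (0.185) lay between -0.019 and 0.3782 with single libraries left out. Over all genes the calls of 737 higher and 266 lower became 791 and 319 with no filter, 779 and 247 with edgeR, 830 and 265 with DESeq2, and 568 to 862 and 180 to 370 with single libraries left out. In the lists of other lineage factors, output genes and subtype genes, 8 genes were called higher and 2 lower. At a mean of at least 50 these were 5 and 1, with fewer genes tested, and with no filter the lower calls were 4. With single libraries left out they ran from 5 (without control replicate 1, 2 or 3 or clone 2) to 11 higher and from 1 (without control replicate 3, which lost *FAM83A*) to 3 lower. *INSM1* (3.42) lost its call with a pseudocount of 0.1, where it was at 4.79, and was at 1.58 with a pseudocount of 10.

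Control and KO replicates are not stated to be paired by their number. The correlations of their deviations were 0.039, 0.134 and 0.032 for the same number, and -0.074 to 0.036 for different numbers. Control replicates 1 and 2 correlated best with the clone of their own number, and control replicate 3 with clone 1 (0.036). With the replicate number as a block, 725 genes were called higher and 259 lower over all genes, the adjusted p was 0.0116 for *GATA6*, 0.00923 for *FOXA1* and 0.0379 for *PDX1*, and the call of *PPARGC1A* was lost, as it also was with DESeq2 and with an adjusted p in the cut-off. The precision is limited by 3 libraries per group, by depth for *FOXA2* and *HNF4A*, and in part by depth for other low genes. Among these is *FOXA3*, with 27 to 44 reads per library.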
